A study of Rattus norvegicus with 35 samples.

Results

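The genes described here encode nuclear-encoded subunits and assembly factors of the mitochondrial respiratory chain and ATP synthase, measured in rat liver. Members were all genes with a probe set of 1 gene symbol whose symbol starts with Ndufa, Ndufb, Ndufc, Ndufs, Ndufv, Sdh, Uqcr, Cox4, Cox5, Cox6, Cox7, Cox8 or Atp5, each read by its probe set of highest mean. This gave 90 of the 14217 genes named by the array. Of these, 34 belong to complex I (NADH dehydrogenase), 4 to complex II (succinate dehydrogenase), 7 to complex III (the cytochrome bc complex), 19 to complex IV (cytochrome c oxidase) and 16 to complex V (ATP synthase). Ndufa4 and Ndufa4l2 were counted with complex IV, where the Ndufa4 protein is found, and so was Cox6c-ps1, a pseudogene by its symbol. The other 10, whose symbols start with Ndufaf or Sdhaf, are assembly factors that share the prefix but not the finished complexes, and they are described separately.

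The respiratory chain passes electrons from NADH and succinate to oxygen and pumps protons across the inner mitochondrial membrane, and ATP synthase uses the returning protons to make ATP. Its subunits come from both the mitochondrial and the nuclear genome. The nuclear set includes the catalytic subunits that bind flavins, iron-sulfur clusters or nucleotides, a larger number of accessory subunits, and isoforms used in muscle, lung or testis in place of the general form. Hepatocytes are rich in mitochondria and use this ATP for gluconeogenesis, urea synthesis and other biosynthesis.

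The animals were male rats of the Harlan Sprague Dawley stock, aged 7 weeks when dosing began. They were gavaged (5 ml/kg) on 5 consecutive days, and RNA was taken from the left liver lobe a day later. The compound was the brominated flame retardant BTBPE, or 1,2-bis(2,4,6-tribromophenoxy)ethane. Vehicle rats received corn oil alone (n = 6), and the dosed groups received 0.07, 0.69, 6.88 or 680 mg/kg (n = 6 each) or 68 mg/kg (n = 5) in the same oil. Each of the 35 samples was 1 array and is counted as 1 rat. Values are log2 RMA levels, a summary of probe brightness per probe set, and the number of arrays limits their precision. All 9 measured hepatocyte markers read well above the array medians (means 12.33 to 14.39), and none of the 9 measured skeletal muscle and heart markers did (means 2.15 to 3.42).

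Promoter sequences are shown first for the 4 genes among those that followed the rest of the set most closely from rat to rat, and for Sdha, which had the lowest such correlation, a value that rested largely on 2 rats. Transcription factors known for respiratory chain genes are NRF-1, the ETS-family factor GABP and YY1. Each stretch below is the 250 bases before the annotated start on assembly GRCr8, 5′ to 3′ on the gene's own strand, from RefSeq. They are Ndufb6 (chr5:60206153-60206402, minus strand), Atp5po (chr11:44657484-44657733, minus), Atp5mk (chr1:255922048-255922297, minus), Atp5pf (chr11:37375102-37375351, minus) and Sdha (chr1:30764303-30764552, plus). Capitals mark a match, on either strand, to the letters of NRF-1 (CGCATGCGC), ETS (CCGGAAG), YY1 (AAGATGGCG), the CCAAT box (CCAAT) or the GC box (GGGCGG).
Ndufb6: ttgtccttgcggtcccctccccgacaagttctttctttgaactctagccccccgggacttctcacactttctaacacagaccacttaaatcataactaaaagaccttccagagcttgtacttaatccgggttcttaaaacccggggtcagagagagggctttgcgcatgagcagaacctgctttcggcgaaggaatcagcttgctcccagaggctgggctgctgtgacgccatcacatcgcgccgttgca
Atp5po: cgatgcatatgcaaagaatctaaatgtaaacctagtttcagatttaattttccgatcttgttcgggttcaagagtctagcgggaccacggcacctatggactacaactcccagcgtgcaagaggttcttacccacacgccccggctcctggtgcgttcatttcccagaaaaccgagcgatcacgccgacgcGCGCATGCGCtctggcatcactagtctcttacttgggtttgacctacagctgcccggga
Atp5mk: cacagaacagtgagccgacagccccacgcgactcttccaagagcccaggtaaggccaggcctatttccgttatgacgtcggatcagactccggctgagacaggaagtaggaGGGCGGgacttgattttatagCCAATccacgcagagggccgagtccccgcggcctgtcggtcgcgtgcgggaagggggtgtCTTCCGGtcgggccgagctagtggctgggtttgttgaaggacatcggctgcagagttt
Atp5pf: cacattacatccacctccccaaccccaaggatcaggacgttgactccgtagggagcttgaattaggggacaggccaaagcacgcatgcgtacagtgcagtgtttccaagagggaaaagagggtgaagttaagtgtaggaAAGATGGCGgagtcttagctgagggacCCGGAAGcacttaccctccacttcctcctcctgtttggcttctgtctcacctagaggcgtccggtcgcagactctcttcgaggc
Sdha: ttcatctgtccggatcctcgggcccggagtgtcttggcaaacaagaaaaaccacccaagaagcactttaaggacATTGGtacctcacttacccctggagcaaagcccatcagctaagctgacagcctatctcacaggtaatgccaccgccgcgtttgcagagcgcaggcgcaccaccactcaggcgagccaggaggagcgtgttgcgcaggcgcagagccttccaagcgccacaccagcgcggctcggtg
Atp5po holds the NRF-1 letters on both strands, overlapping, Atp5mk the ETS letters with a CCAAT box and a GC box, Atp5pf the ETS and YY1 letters, Sdha a CCAAT box read from the other strand, and Ndufb6 none of these strings.

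Over the 82 members with a promoter in the RefSeq table, the same strings were looked for on both strands from 250 bases before to 50 bases after the start. No string contains another. The ETS letters were in 25 promoters (30.5%), against 18.9% of the 8059 promoters of array genes read above the median signal and 9.22% of all 27457 promoters. Cox4i1, Sdhb, Sdhd, Atp5f1a, Ndufs1 and Uqcrc2 were among these 25. The YY1 letters were in 11 (13.4%, against 4.08% and 1.93%), and the NRF-1 letters in 7 (8.54%, against 3.47% and 1.66%): Atp5me, Atp5mg, Atp5po, Ndufa11, Ndufaf4, Ndufaf5 and Uqcrc1. The CCAAT box was in 29 (35.4%, against 38.3% and 37.7%) and the GC box in 38 (46.3%, against 63.2% and 34.9%). A match describes letters in this window and is not evidence of binding.

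Nearly all of the chain was read clearly in liver. The means of 83 members lay above the median of the array medians, 4.74, and 63 of the 90 had a mean of at least 10. The 7 members below it were Cox4i2, the lung isoform of subunit 4 (mean 3.31), Cox6a2, Cox7a1 and Cox8b, isoforms of striated muscle (3.76, 3.98 and 3.57), Cox6b2 and Cox7b2, testis isoforms (3.09 and 2.80), and Ndufa4l2, a paralogue induced by low oxygen (3.33). The general counterparts with a probe set of their own were read above it. Cox4i1 averaged 11.95, Cox6a1 11.45, Cox6b1 11.07, Cox7b 12.38, Cox8a 11.83 and Ndufa4 12.03. Different probe sets differ in brightness for the same amount of RNA, so these means are not ranked against each other, and values near 3 are not shown to be above background.

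**Figure D1:**
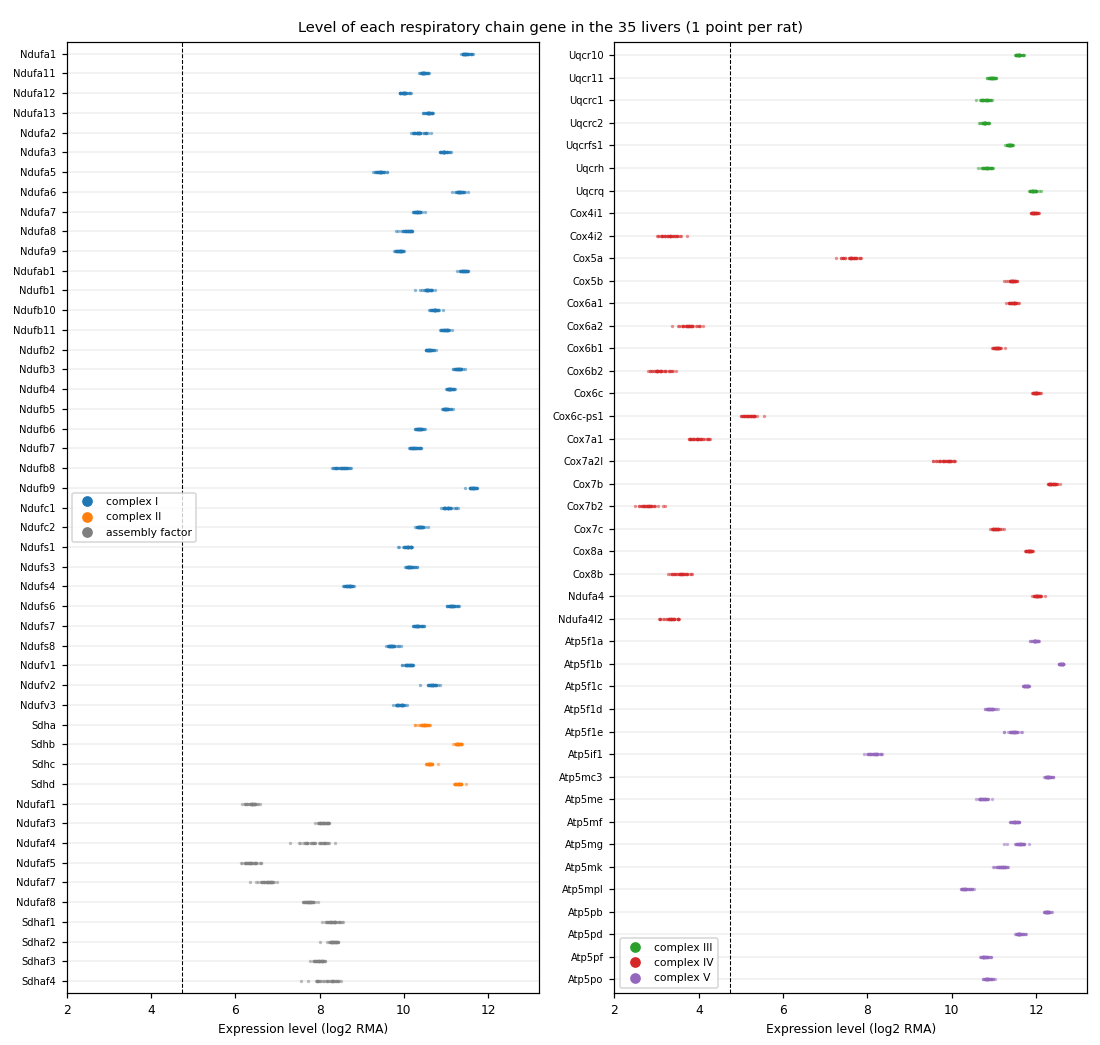
Expression level (log2 RMA, horizontal) of each of the 90 genes, 1 point per rat (35), coloured by complex; the dashed line is the median of the array medians, 4.74. The 7 genes left of the line are tissue-restricted isoforms of complex IV and Ndufa4l2, and each gene's rats form a narrow cluster beside the distance between genes.

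The 5 core members of the complexes given here had similar means in all groups. Atp5f1b, the catalytic beta subunit of ATP synthase, averaged 12.59 ± 0.03 (SD, n = 6) in vehicle rats, with means of 12.61, 12.59, 12.57, 12.60 and 12.60 at 0.07, 0.69, 6.88, 68 and 680 mg/kg. Ndufv1, which carries the flavin that accepts electrons from NADH, averaged 10.14 ± 0.06 (SD, n = 6) in vehicle rats and between 10.07 and 10.14 at the 5 doses. Sdhb, the iron-sulfur subunit of succinate dehydrogenase, averaged 11.27 ± 0.03 (SD, n = 6) in vehicle rats and between 11.26 and 11.33 under dosing. Uqcrfs1, the Rieske iron-sulfur protein of complex III, ranged from 11.25 to 11.46 over all 35 rats. Cox4i1 ranged from 11.88 to 12.06, a span of 1.13-fold. Dose groups and vehicle overlapped for these 5 genes, though for Sdhb 5 of 6 rats at 680 mg/kg lay above the highest vehicle rat. Other core members, described below, had larger differences at single doses, none of which passed the adjusted test. Cox5a at 68 mg/kg and Sdha at 6.88 mg/kg had lower means than in vehicle rats. For Cox5a this was the dimmer probe set. A brighter one (mean 11.40), shared with another gene, was 0.995-fold of vehicle at 68 mg/kg. Atp5f1a was also lower at 6.88 mg/kg and did not overlap with vehicle. The share of all genes that separate in this way is not given, so the separation is not read as a result.

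No member changed at any dose by the test over all probe sets. limma called 0 of the 90 members and 0 of 31042 probe sets (background 0%) at each of the 5 doses, in the F test over all doses and in the trend over dose rank, at an adjusted p threshold of 0.05. The smallest adjusted p of a member was 1.00 at 0.07 and 0.69 mg/kg, 0.999 at 6.88 and 68 mg/kg, 0.994 at 680 mg/kg, 1.00 in the F test and 0.971 in the trend. Before adjustment, 1 member passed 0.05 at 0.07 mg/kg (1 of 90, background 3.64% of probe sets) and 1 at 0.69 mg/kg (background 3.16%). There were 7 at 6.88 mg/kg (background 4.63%), 3 at 68 mg/kg (background 3.88%) and 3 at 680 mg/kg (background 4.95%). The F test had 1 (background 3.85%) and the trend 1 (background 5.14%). The 7 at 6.88 mg/kg, 3 of them higher and 4 lower than vehicle, made up more of the 90 than the background share, and each of the other counts made up less.

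The precision behind this result was better than for most genes of the array. The 95% confidence interval of the difference from vehicle lay inside a 1.5-fold change in either direction for 90 of 90 members at each dose. It lay inside a 1.2-fold change for 83, 85, 84, 84 and 82 of 90 members at 0.07, 0.69, 6.88, 68 and 680 mg/kg, against 71.1%, 72.7%, 69.4%, 65.9% and 69.2% of all genes. Inside a 1.1-fold change were 61, 57, 48, 44 and 51 members, against 11.1%, 11.3%, 10.1%, 8.32% and 9.82% of all genes. Ndufaf4, an assembly factor of complex I, and Cox4i2 fell outside the 1.2-fold band at every dose. These intervals are for single genes and are not adjusted for their number.

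Medians over the list stayed within a few hundredths of a log2 unit of vehicle. The median difference was 0.0047 at 0.07 mg/kg, −0.0099 at 0.69, 0.0031 at 6.88, 0.022 at 68 and −0.0093 at 680 mg/kg, and over all probe sets it was −0.0010, −0.0022, −0.0025, −0.0023 and −0.0035. Members above their vehicle mean numbered 50, 39, 47, 70 and 38 of 90 in the same order, against 49.5%, 48.7%, 48.7%, 48.9% and 48.3% of all probe sets. Members share their rats, so a count of this kind moves with a single array. At 68 mg/kg 68 of the 83 members read above the array median were higher than in vehicle rats, and without replicate 2 of that group 53 were. The median at 68 mg/kg was then 0.0089.

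Medians of single complexes reached further than those of the whole list, from −0.036 to 0.054. Complex I, the entry point for electrons from NADH, had medians between −0.0083 (0.69 mg/kg) and 0.030 (68 mg/kg). At 68 mg/kg 27 of its 34 members were above vehicle, against 51.7% of all genes, and none had an unadjusted p under 0.05. In complex II all 4 genes lay below vehicle at 6.88 mg/kg, with a median of −0.036 and a lowest value of −0.096 for Sdha, the flavoprotein that oxidises succinate. In complex III the medians ran from −0.016 at 0.69 mg/kg to 0.017 at 68 mg/kg. The 12 complex IV genes read above the array median had medians between −0.0030 and 0.024, and ATP synthase between −0.016 and 0.026. All 10 assembly factors were above vehicle at 68 mg/kg, by 0.0029 to 0.12 with a median of 0.054, and 4, 5, 3 and 5 of them were above it at 0.07, 0.69, 6.88 and 680 mg/kg. The 5 comparisons share their vehicle rats.

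**Figure D2:**
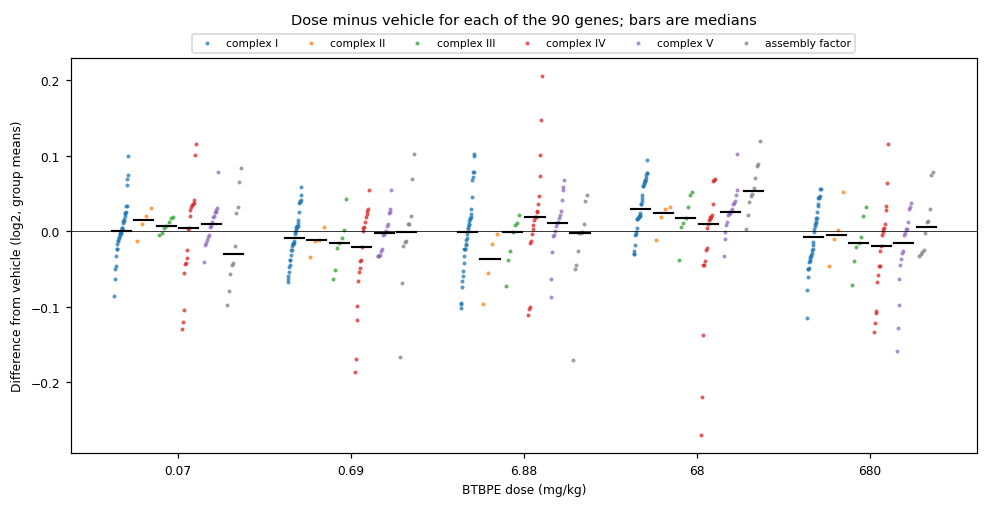
Difference of each gene's dose-group mean from its vehicle mean (log2, vertical) at the 5 doses (mg/kg, horizontal), 1 point per gene, coloured by complex, with a bar at each complex's median. Medians lie between −0.036 (complex II at 6.88 mg/kg) and 0.054 (assembly factors at 68 mg/kg), and single genes between −0.27 and 0.21.

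The members with the smallest p at each dose are given by value, since none passed the adjusted test. At 0.07 mg/kg the smallest was that of Ndufs6, a zinc-binding accessory subunit of complex I. Its 6 vehicle rats ranged from 11.03 to 11.14 (median 11.10) and the 6 dosed rats from 11.11 to 11.28 (median 11.19). The ranges overlapped, and 4 dosed rats lay above the highest vehicle rat. The fold value was 1.07 (95% interval 1.00 to 1.14), with limma's unadjusted p = 0.0369 and adjusted p = 1.00. Next was Atp5pd, a subunit of the stalk that holds the ATP synthase head still, which was 1.06-fold (0.994 to 1.12) with unadjusted p = 0.0752 and adjusted p = 1.00 in limma. At 68 mg/kg all 5 rats lay above the highest vehicle rat for Ndufs6, at 11.14 to 11.19. No complex I gene had an unadjusted limma p under 0.05 at that dose, and this separation is not read as a result.

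At 0.69 mg/kg both genes were complex IV isoforms read below the array median, where the deposited values compress differences and are not shown to be above background. Cox6a2 ranged from 3.70 to 3.96 (median 3.80) in vehicle rats and from 3.36 to 3.76 (median 3.67) in dosed rats. Cox4i2 ranged from 3.27 to 3.55 (median 3.47) and from 3.13 to 3.39 (median 3.28). The groups overlapped in both, with 3 of 6 dosed rats below the lowest vehicle rat. limma's unadjusted p was 0.0391 for Cox6a2 and 0.0661 for Cox4i2, and the adjusted p was 1.00 for each.

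At 6.88 mg/kg the smallest p belonged to Ndufaf7, a methyltransferase needed to assemble complex I. It ranged from 6.62 to 6.92 (median 6.81) in vehicle rats and from 6.36 to 6.79 (median 6.67) in dosed rats, which overlapped. Its fold value was 0.888 (0.806 to 0.979), with limma's unadjusted p = 0.0183 and adjusted p = 0.999. Another probe set of the gene, below the array median, also read below its vehicle mean at this dose, by a log2 difference of −0.057. Its sign was that of the first at only 2 of the 5 doses. Atp5f1a, the alpha subunit of the ATP synthase head, ranged from 11.96 to 12.05 (median 11.97) in vehicle rats and from 11.85 to 11.95 (median 11.92) at 6.88 mg/kg. Here all 6 dosed rats lay below the lowest vehicle rat, but the difference was 0.941-fold (0.893 to 0.992), with limma's unadjusted p = 0.0252 and adjusted p = 0.999. The share of all genes that separate in this way is not given here, so the separation is not read as a result. The other members with an unadjusted p under 0.05 at this dose were Ndufa9 and Ndufb11 (0.937-fold and 0.935-fold), and Ndufa1, Cox6b2 and Cox6c-ps1 (1.07-fold, 1.15-fold and 1.11-fold).

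At 68 mg/kg the 2 smallest values were again in complex IV. Cox4i2 read 3.02, 3.31, 3.13, 3.31 and 3.03 in the 5 dosed rats, against 3.27 to 3.55 (median 3.47) in vehicle rats. Its limma unadjusted p was 0.00663 and its adjusted p 0.999, at a dim level that may be background. Cox5a, a structural subunit of cytochrome c oxidase, read 7.61, 7.61, 7.38, 7.25 and 7.46 in dosed rats, against 7.46 to 7.84 (median 7.72) in vehicle rats. The ranges overlapped, with 3 of 5 dosed rats below the lowest vehicle rat, and the value was 0.859-fold (0.771 to 0.957; limma unadjusted p = 0.00711, adjusted p = 0.999).

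A second probe set, annotated to both Cox5a and LOC100361008 and so outside the rule, had a mean of 11.40. At 68 mg/kg it was 0.995-fold, with an unadjusted limma p of 0.841. Across the 35 rats, with group means removed, it correlated with the single-symbol Cox5a probe set at r = −0.085. The lower value of Cox5a at this dose was therefore seen in 1 of its 2 probe sets.

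At 680 mg/kg the smallest p was that of Atp5mg, subunit g of the membrane part of ATP synthase. Vehicle rats ranged from 11.55 to 11.71 (median 11.62) and dosed rats from 11.25 to 11.61 (median 11.55). The groups overlapped, and replicates 3 and 4, at 11.25 and 11.30, were lower than the rest of the dosed group. The value was 0.896-fold (0.826 to 0.972; limma unadjusted p = 0.00955, adjusted p = 0.994). Atp5mg also had the smallest member p in the F test (unadjusted 0.0487, adjusted 1.00) and in the trend, with a slope of −0.022 log2 units per dose rank (unadjusted 0.0407, adjusted 0.971 in limma; slope −0.014 without replicate 3 at 680 mg/kg). Ndufa6, an accessory subunit of complex I, ranged from 11.26 to 11.44 (median 11.37) in vehicle rats and from 11.13 to 11.33 (median 11.26) at 680 mg/kg. Its value was 0.924-fold (0.867 to 0.985; limma unadjusted p = 0.0162, adjusted p = 0.994), and Atp5f1e, the epsilon subunit, was the third with an unadjusted p under 0.05, at 0.915-fold. Atp5if1, the inhibitor protein of ATP synthase, was next in the trend, with a slope of −0.019 (adjusted p = 0.973 in limma). Its 2 further probe sets, with means of 5.28 and 5.61, read above vehicle at 680 mg/kg, by 0.034 and 0.16, where the first read below it by a log2 difference of −0.098.

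The set varied little from rat to rat. The SD within groups had a median of 0.067 over the 90 members, against 0.144 over all probe sets and 0.139 over all genes. Spread falls with level on this array, and genes with a mean of at least 10 had a median SD of 0.078. Atp5f1b had the smallest SD, 0.031, and its highest rat was only 1.08-fold its lowest. In the other complexes the smallest were Ndufb4 (0.052), Sdhb (0.042), Uqcrfs1 (0.040) and Cox6c (0.046), and the largest were Ndufb8 (0.12), Sdha (0.078), Uqcrc1 (0.084), Cox4i2 (0.16) and Atp5if1 (0.10). Of the 90 members, 72 (80.0%) had an SD under 0.1, against 71.1% of genes with a mean of at least 10 and 19.4% of all genes.

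Assembly factors varied more than most subunits, but they were also dimmer, with means of 6.37 to 8.32, where spread is larger. Their median SD was 0.104, against 0.126 over all genes read above the array median. Ndufaf4 had the largest SD of all members, 0.26, running from 7.31 to 8.37 over the 35 rats, a 2.09-fold span. Sdhaf4, which helps to join the flavoprotein of complex II to its partner subunit, had an SD of 0.22 and ran from 7.57 to 8.52. The lowest Ndufaf4 value was replicate 5 at 0.07 mg/kg and the highest replicate 1 of the same group, so its spread was not one between doses. Ndufaf8, the partner of the complex I factor Ndufaf5, had the smallest SD of the 10, 0.084.

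**Figure D3:**
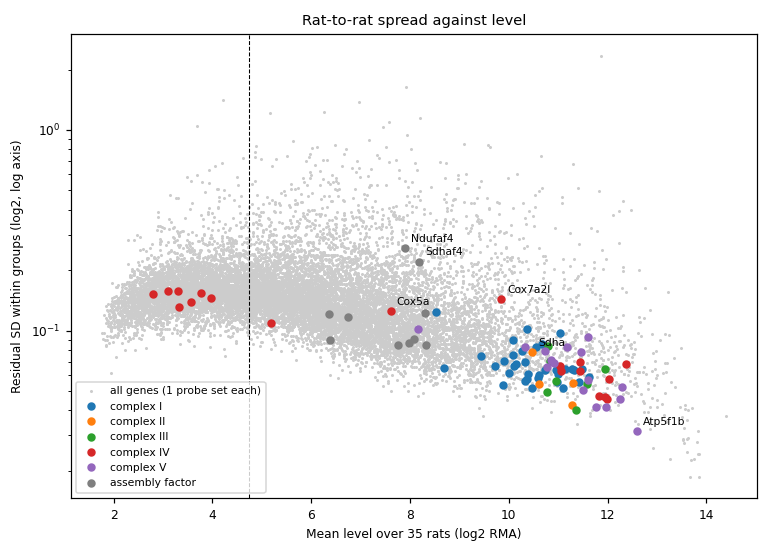
SD within groups (log2, vertical, log axis) against mean level over 35 rats (log2 RMA, horizontal) for all 14217 genes in grey and the 90 respiratory chain genes in colour by complex; the dashed line is the median of the array medians, 4.74. The coloured points of complexes I to V lie mostly between SDs of 0.031 and 0.10 at high levels, with Ndufaf4 at 0.26 and Sdhaf4 at 0.22 above them.

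Members moved together from rat to rat within the dose groups. With group means removed, the median pairwise Pearson r over the 35 rats was 0.29 among the 90 members and 0.32 among the 83 read above the array median, where 86.7% of 3403 pairs were above 0. Among the 876 genes with a mean of at least 10 it was 0.024. It was 0.66 for 46 cytosolic ribosomal protein genes, 0.30 for 73 mitochondrial ribosomal protein genes and 0.21 for 46 proteasome genes. All values of a rat come from 1 RNA sample and 1 array normalised as a whole, so these correlations are descriptions. In whole liver, fewer cells of a type and less RNA per cell cannot be told apart.

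Belonging to the same complex added little to this. Subunit pairs of the same complex had a median r of 0.38 (774 pairs) and pairs from different complexes 0.36 (1854 pairs). Within complexes the median was 0.38 in complex I, 0.34 in complex III, 0.45 among the 12 complex IV genes read above the array median, 0.39 in complex V, 0.27 among assembly factors and 0.065 in complex II. Of the 10 closest pairs 7 crossed complexes and 3 did not, near the split of all subunit pairs, 1854 and 774. Cox7b, a small subunit of cytochrome c oxidase, and Atp5po, the stalk subunit that confers oligomycin sensitivity, had r = 0.84, as did Ndufa7 with Cox7b, Ndufb2 with Cox7c and, within ATP synthase, Atp5f1e with Atp5mk. Ndufs3 and Ndufs8, core subunits of the matrix arm of complex I, had r = 0.83.

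Other subunits had higher values on the median than catalytic ones when each gene was set against the rest. The r of each gene with the mean of the other members was highest for Ndufb6 (0.84), Cox7b (0.83) and Atp5mk (0.80), followed by Atp5pf (0.80) and Atp5po (0.79), whose promoters are shown above. Its median was 0.63 over 60 other subunits, mostly accessory or structural and including Cox6c-ps1, and 0.43 over 13 catalytic or redox subunits, a textbook grouping drawn up after these values had been seen. Low values were found for Ndufs7 (0.13), Ndufs1 (0.24), Atp5f1b (0.27) and Atp5f1a (−0.028), but Ndufs3 (0.74) and Ndufs8 (0.70), from the same grouping, were as high as the accessory ones. Cox7a2l, which joins complexes III and IV in supercomplexes, had r = −0.11.

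Sdha had the lowest r with the mean of the other members, −0.36, and that value rested largely on 2 rats. It was −0.23 without replicate 5 at 6.88 mg/kg, −0.26 without replicate 2 at 68 mg/kg and −0.083 without both, which are the rats with the highest member means. Within groups of 5 or 6 rats the sign differed. It was above 0 at 0.07 and 0.69 mg/kg (0.20 and 0.24). It was below 0 in vehicle rats (−0.79) and at 6.88, 68 and 680 mg/kg (−0.76, −0.61 and −0.37). The lowest r of any pair was that of Sdha with Ndufb4, −0.68. Without those 2 rats the lowest for Sdha was −0.58, with Atp5mc3. Within complex II Sdha had r = −0.49 with Sdhc, a membrane anchor (−0.23 without those 2 rats), and 0.023 with Sdhb, while the anchors Sdhc and Sdhd had r = 0.63. At 6.88 mg/kg replicates 2 and 5 had the lowest Sdha levels of all rats, 10.26 in each, and replicate 5 had the highest member mean of that group. In vehicle rats Sdha read 10.48, 10.57, 10.41, 10.42, 10.59 and 10.49. Sdha was read by 1 single-symbol probe set, so no second measurement of it is given.

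**Figure D4:**
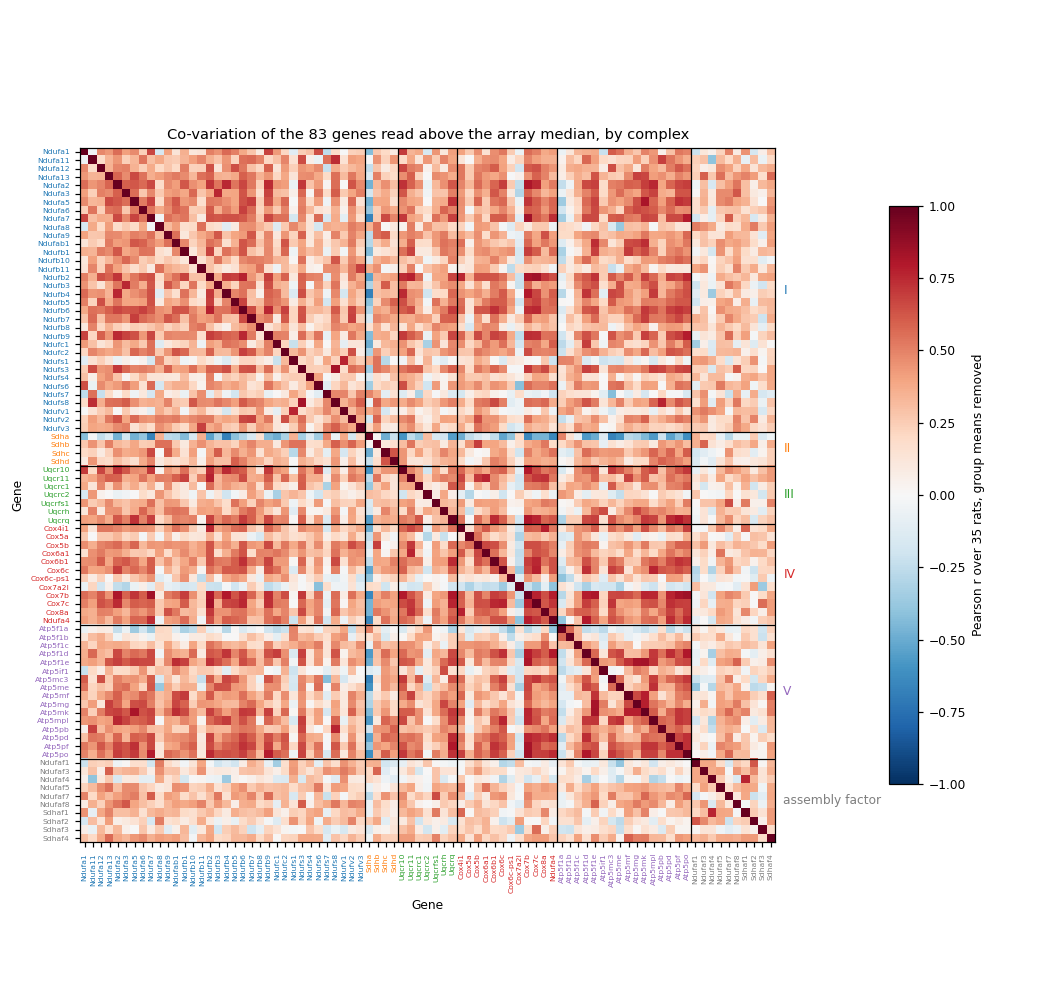
Pearson r between the 83 genes read above the array median over 35 rats with group means removed (colour, −1 to 1), ordered by complex with black lines between complexes. Most cells are red, the Sdha row and column are mostly blue, and the rows of Cox7a2l and Atp5f1a are pale, with r of −0.11 and −0.028 with the mean of the other members.

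The shared variation appears as the mean deviation of the 83 members in each rat. The highest rats were replicate 2 at 68 mg/kg (0.093), replicate 5 at 6.88 mg/kg (0.085), replicate 6 at 680 mg/kg (0.066) and replicate 6 at 0.07 mg/kg (0.057). The lowest was replicate 5 at 0.07 mg/kg (−0.082). High and low rats occurred in the same dose groups, and the group means lay between −0.012 at 680 mg/kg and 0.026 at 68 mg/kg. Without the 2 rats with the most extreme means the median pairwise r over the 90 members fell from 0.29 to 0.21.

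The 6 vehicle rats lay closer together than the rats of any dose group. Their mean deviations ran from −0.0089 to 0.015, with an SD of 0.0090, against SDs of 0.047, 0.034, 0.047, 0.041 and 0.043 at 0.07, 0.69, 6.88, 68 and 680 mg/kg. The median pairwise r of the members was 0.041 within the vehicle group and 0.41, 0.39, 0.46, 0.45 and 0.36 within the dose groups. The median SD of single genes over the whole array was 0.120 in vehicle rats and 0.114 to 0.137 in the dose groups. The mean of the mitochondrial ribosomal protein genes was also narrowest in vehicle rats, with an SD of 0.021 against 0.030 to 0.079 in the dose groups. That of cytosolic ribosomal protein genes was narrowest at 0.69 mg/kg, with 0.0098 against 0.052 in vehicle rats. This difference in spread was not tested.

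**Figure D5:**
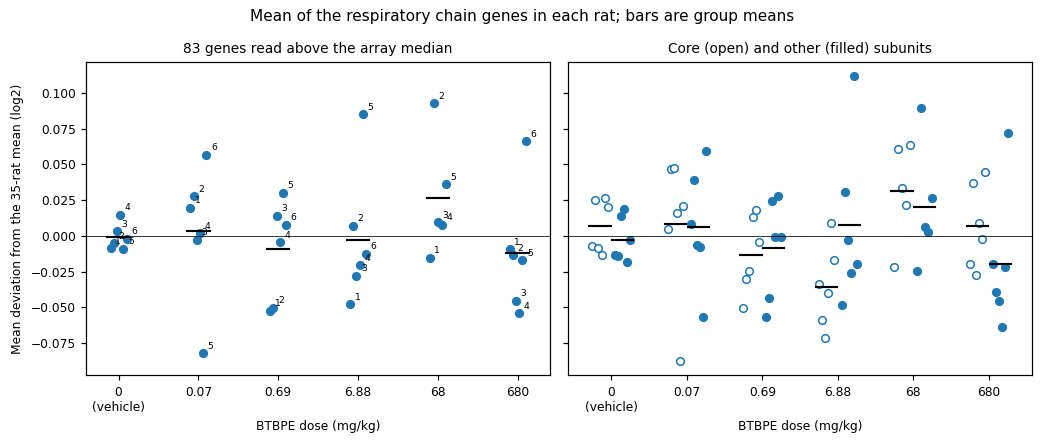
Mean deviation from the 35-rat mean (log2, vertical) in each rat by BTBPE dose (mg/kg, horizontal), with replicate numbers and bars at group means: left, the 83 genes read above the array median; right, 13 core (open) and 60 other subunits (filled). The vehicle rats on the left lie between −0.0089 and 0.015, and replicate 2 at 68 mg/kg and replicate 5 at 6.88 mg/kg stand highest.

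Genes outside the set that tracked the member mean most closely were of mitochondria in most cases. The closest were Naa38 (r = 0.85, rho = 0.83), an N-terminal acetyltransferase subunit, and Kgd4 (0.85 and 0.83), a subunit of the alpha-ketoglutarate dehydrogenase complex. Coa3, an assembly factor of cytochrome c oxidase, followed at 0.82, and Timm13, of the inner membrane import system, at 0.80. Mitochondrial ribosomal proteins made up 5 of the 10 closest, Mrps11 (0.81), Mrps12 (0.79), Mrpl20 (0.79), Mrpl22 (0.77) and Mrps16 (0.75), and Tmem208 had r = 0.77. These were taken from all genes for their likeness over the same 35 rats.

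The mean of the 73 mitochondrial ribosomal protein genes had r = 0.83 and rho = 0.84 with the member mean, and r = 0.77 without 2 rats. These were replicate 5 at 6.88 mg/kg and replicate 5 at 0.07 mg/kg. With group means removed, their member means lay furthest from the median. Cytosolic ribosomal protein genes had r = 0.50 (rho 0.48, 0.39 without those rats). The difference between 3′ and 5′ probe sets, which grows as RNA breaks down, had r = 0.21 for beta-actin and 0.14 for GAPDH. Markers of Kupffer cells and macrophages and of endothelium were lower where the members were higher. Their list means had r = −0.45 (rho −0.46, −0.37 without those rats) and r = −0.50 (rho −0.52, −0.44). All 8 macrophage markers and all 7 endothelial markers measured had r below 0 and none was near 0 in level. The macrophage list mean spanned 7.71 to 8.39 in vehicle rats, 7.75 to 8.39, 7.38 to 8.56, 7.66 to 8.56, 7.38 to 8.31 and 7.86 to 8.32 in the dose groups from the lowest dose up. The endothelial one spanned 8.13 to 8.21 in vehicle rats and then 7.88 to 8.19, 7.88 to 8.25, 7.94 to 8.22, 7.93 to 8.17 and 8.07 to 8.34. Of 8 measured lymphocyte markers 7 also had r below 0, though only 2 of the 8 were read above the array median. So did 6 of 9 skeletal muscle and heart markers, none of them read above it. The blood list and the stellate cell and fibroblast list went the other way. The blood list had r = 0.33 (rho 0.27, 0.30 without those rats), with 0 of 5 measured markers below 0. The stellate cell and fibroblast list had r = 0.28 (rho 0.19, 0.25), with 3 of 9 below 0. The hepatocyte list had r = −0.22, and 0.010 without those rats. The part of these cells and of RNA quality in the shared variation was not tested.

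Other genes of mitochondrial energy metabolism did not pass the test either. Of 42 measured genes for assembly of the chain, coenzyme Q synthesis, electron transfer flavoprotein and cytochrome c1, 19 measured regulators of mitochondrial biogenesis, 14 of the citric acid cycle and 10 carriers and uncouplers, limma called 0 at every dose. At 6.88 mg/kg 30 of the 42, 10 of the 19 regulators, 12 of the 14 citric acid cycle genes and 6 of the 10 carriers lay below vehicle, with medians of −0.026, −0.0082, −0.048 and −0.033. At 0.69 mg/kg 29, 13, 11 and 6 did, with medians of −0.025, −0.025, −0.031 and −0.0099. Over all 14217 genes, 7535 lay below vehicle at 6.88 mg/kg and 7571 at 0.69 mg/kg. These counts were not tested, and they differed at other doses. In the same order 19, 11, 5 and 1 lay above vehicle at 0.07 mg/kg, and 22, 10, 6 and 6 at 680 mg/kg. Over all 14217 genes 7193 and 7263 did. At 68 mg/kg 28 of 42, 12 of 19, 7 of 14 and 7 of 10 lay above vehicle, against 7346 of 14217 genes. Over all 31042 probe sets, 1438 (4.63%) had an unadjusted limma p under 0.05 at 6.88 mg/kg, 711 of them higher and 727 lower. In these lists 3 of the 42, 0 of the 19, 1 of the 14 and 1 of the 10 did. These 5 genes were all lower, and no list was tested as a whole. Pdss2, of coenzyme Q synthesis, was 0.908-fold, Bcs1l, which inserts the Rieske protein, 0.880-fold, and Lrpprc, which stabilises mitochondrial mRNA, 0.880-fold. Sucla2, a subunit of succinyl-CoA ligase, was 0.941-fold and Slc25a3, the mitochondrial phosphate carrier, 0.926-fold. Ppargc1a, the coactivator best known for driving mitochondrial biogenesis, was 1.11-fold at 680 mg/kg and 1.01-fold at 6.88 mg/kg, with a mean of 4.61 that lay below the array median. Its dose-centred r with the member mean was 0.10. Among the regulators Esrra, an orphan nuclear receptor that acts with it, had the highest r, 0.59.

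Limits of the measurement bear on single members. For 10 members 1 or more further probe sets were read, whose sign against vehicle was the same as that of the first in 27 of 55 dose comparisons. The 7 probe sets annotated to a respiratory chain gene and another symbol, which cover Cox7a2, Uqcrb, Ndufs5, Ndufa10, Atp5mc1, Atp5mc2 and Cox5a, were between 0.931-fold and 1.05-fold of vehicle, and 0 had an unadjusted p under 0.05 at any dose.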

How the data were processed

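Each sample gave 100 ng of RNA (integrity number 7.0 or more, per the labels' protocols) to a 1-colour 3′ expression array. RMA and affy made the values, per the submitters' processing notes, with versions not given in the sources used here. What the authors deposited was used as log2 RMA expression per probe set. RMA's quantile step reduces a shift shared by most transcripts, and dim probe sets differ less than their RNA would because of its background correction. Array medians lay between 4.71 and 4.79. After 57 control probe sets were left out, 31042 were tested with no filter. Of these 20826 had 1 gene symbol, and 20758 of them matched a current gene identifier of RefSeq (GRCr8, used for names and promoters).

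Groups were taken from the labels, and limma 3.58.1 in R 4.3.3 fitted 1 coefficient per group to all 35 arrays. Each dose was contrasted with vehicle, with Benjamini-Hochberg adjustment over all probe sets and called at 0.05. R/maanova, named in the series design, was replaced by limma. P-values set each difference against the spread between samples within groups, pooled over the 6 groups and moderated across probe sets. The fit was tested on simulated data. Spread is the residual SD of this fit, and co-variation the Pearson r after group means were subtracted. The members, the gene lists and the tests were chosen with earlier results of these data known.

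Named members are a core list, a list of isoforms, the 2 with the smallest p at each dose and in the F and trend tests, and the largest and smallest SD of each complex; further genes named for co-variation were chosen after their values were seen. The results were recomputed leaving out single arrays or dim probe sets, with other member sets or 1 probe set per gene, with arrays median-centred or quantile-normalised once more, with a block for the replicate number, and with array weights, another variance prior or no moderation.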

Additional observations from a re-analysis of the deposited data

Results flagged for a closer look

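In 11 of 204 groups examined (5.39%, over 34 quantities), 1 rat lay far from the nearest other rat relative to the range of its group; chance alone gives about 1 in 20. Replicate 6 at 680 mg/kg stood apart in the member mean, at 0.066 with the next rat at −0.0093, and in Cox6b1 (11.25) and Cox7b (12.45). Replicate 5 at 6.88 mg/kg (11.76) and replicate 2 at 68 mg/kg (11.73) stood above their groups in Atp5pd. Uqcrfs1 was high in replicate 6 at 0.07 mg/kg (11.46), and Ndufb8 low in replicate 5 of that group (8.38). At 0.69 mg/kg Cox5a was low in replicate 4 (7.43) and Cox6c high in replicate 5 (12.04). Cox7b2 in replicate 2 at 6.88 mg/kg (3.20) and Cox8b in replicate 4 at 680 mg/kg (3.79) were high at levels not shown to be above background. No cause was tested.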

How the results depend on the processing

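limma called 0 members and 0 probe sets at every dose, in the F test and in the trend under each alternative run, including the replicate number as a block. The samples share only that number: deviations of same-numbered samples correlated at −0.29 to 0.24 (median −0.017, 85 pairs), against a median of 0.0025 for different numbers. The 12 differences and slopes of the members named for the smallest p kept their direction throughout. Medians over the members are close to 0 and moved with single arrays. At 0.07 mg/kg leaving out 1 array gave −0.0037 to 0.020 (highest without replicate 5 of that dose), at 0.69 −0.015 to −0.00062 (highest without replicate 2), at 6.88 −0.016 to 0.012 (lowest without replicate 5), at 68 0.0089 to 0.033 (lowest without replicate 2) and at 680 −0.021 to −0.0030 (lowest without replicate 6). The count of the 83 read members above vehicle at 68 mg/kg ran from 53 to 72. Quantile normalisation again gave 0.0022 at 0.69 mg/kg, and median centring 0.0047 at 680 mg/kg. Without the 4 arrays of highest member mean, an alternative chosen after seeing the data, the medians were −0.016 at 6.88, 0.0089 at 68 and −0.021 at 680 mg/kg. The median pairwise r of 0.29 was 0.21 without the 2 most extreme arrays, 0.38 after median centring, 0.32 for members read above the median and 0.32 without assembly factors, and 0.24 to 0.30 leaving out 1 array each. Leaving out an array moved the median SD of the members between 0.065 and 0.068. Dim signals, not depth, limit the 7 members below the array median.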

Other observations

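Among the 5 genes with the most negative r to the member mean over 35 rats were Pros1, the anticoagulant protein S (−0.66), Gzmk and Klrb1a, genes of cytotoxic lymphocytes (−0.66 and −0.65, with means of 4.57 and 3.33), and Pnp, a purine salvage enzyme (−0.61). Among the other genes of the chain's upkeep, Timmdc1 and Cox14, assembly factors of complex I and complex IV, tracked the member mean at 0.74 and 0.73, Cyc1, the cytochrome of complex III, at 0.70, and Tmem70, an assembly factor of ATP synthase, ran against it at −0.46. These were chosen after their values were seen.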
